A study of Mus musculus with 24 samples.

Results

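Cells detect foreign and misplaced nucleic acids with a small set of proteins, and the transcripts of 10 of them were followed here in cultured mouse liver endothelial cells: Ddx58, Ifih1, Dhx58, Mavs, Eif2ak2, Tlr3, Zbp1, Cgas, Sting1 and Adar. They were selected by symbol alone among the protein-coding rows of a table of 56748 genes, without regard to their values, and each symbol matched 1 row. The cells came from livers of 3-month-old C57BL/6 mice, stated to be female, and were purified with magnetic beads as Cd31+ cells or as Cd146+ cells, the second being enriched for sinusoidal endothelium. Each population received 1 of 4 lentiviral constructs: pLKO.1 with a hairpin against p16Ink4a (P16 shRNA), pLKO.1 with a non-coding hairpin (nc shRNA), pLenti-C-mGFP-P2A-Puro with p16Ink4a fused to GFP (P16-GFP), or the same backbone without p16Ink4a (empty vector). Poly-A RNA was sequenced 1 week later from 24 libraries, 3 for each of the 8 groups. All 8 groups were cultured and exposed to lentivirus, and no untransduced cells were analysed here. The comparison asked whether sensors of RNA, such as the one a hairpin presents, or of cytosolic DNA changed at the transcript level. Transcript counts do not measure ligand binding or signalling by the proteins.

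RIG-I (Ddx58) and MDA5 (Ifih1) are cytosolic helicases that bind double-stranded or uncapped viral RNA and pass the signal to Mavs, an adaptor on the mitochondrial membrane, from which interferon genes are switched on. cGAS (Cgas) binds DNA in the cytosol and makes a cyclic dinucleotide that activates Sting1 on the endoplasmic reticulum, with the same class of output. Interferon in turn raises the transcripts of many of these sensors in most cell types, liver endothelium included, so that sensor levels are also part of the interferon response.

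The libraries held 15409767 to 26470392 counted reads, and 3 reads, taken as the floor, were 0.113 to 0.195 CPM (counts scaled to the size of the library). Cdkn2a, the gene that encodes p16Ink4a, stood below its nc shRNA controls in the P16 shRNA groups, at 6.67 ± 2.23 against 56.7 ± 19.9 CPM in Cd31+ cells (SD, n = 3 each) and at 14.9 ± 9.49 against 138.8 ± 52.1 CPM in Cd146+ cells. Cdkn2a was higher with P16-GFP in every library than with empty vector, at means of 229.9 against 56.7 CPM and 497.9 against 91.9 CPM. Reads were counted per gene, so that different transcripts of Cdkn2a were not told apart. In 16 of the 24 libraries, Y-linked Ddx3y stood at 52.1 to 170.5 CPM and Xist at 0.225 CPM or less, which goes against the stated sex of the mice. The other 8 libraries had Xist at 327.2 to 760.0 CPM and no Ddx3y read. Within a population, libraries that shared a replicate number always shared this pattern. The Xist pattern was found in no library of the Cd31+ hairpin groups, in 1 of 3 nc shRNA and 2 of 3 P16 shRNA libraries of Cd146+ cells, in 2 of 3 empty-vector and 1 of 3 P16-GFP libraries of Cd146+ cells, and in 1 of 3 libraries of either vector group in Cd31+ cells. Summed markers of mesenchymal cells (2941 to 41298 CPM) exceeded those of endothelial cells (226 to 1826 CPM) in all 24 libraries, macrophage markers summed to 20.2 to 363.3 CPM, and hepatocyte and lymphoid markers to at most 0.829 and 0.510 CPM. With P16 shRNA, 0 of 9 endothelial, 0 of 6 mesenchymal and 0 of 3 cholangiocyte markers tested were higher at an unadjusted p under 0.05 in either population. No macrophage marker was higher either. In Cd31+ cells 1 of 9 endothelial markers was lower, beside 10.3% of all genes tested. In both populations 1 of 2 tested plasmacytoid dendritic markers was higher, beside 9.51% (Cd31+) and 5.44% (Cd146+) of all genes. Of that list, Siglech and Ccr9 had at most 3 and 8 reads in a library. The part of these cell types in the results was not tested. In bulk RNA, fewer cells of a type and less RNA per cell cannot be told apart.

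In the 12 control libraries, the adaptors and PKR were the most abundant transcripts and Zbp1 was close to absent. Levels of different genes are compared here per length, as RPKM, the CPM divided by the gene length in kilobases. Mavs had 12.5 ± 1.03 RPKM (SD, n = 12), Sting1 12.2 ± 3.18, Eif2ak2 10.7 ± 1.45, Ddx58 7.16 ± 2.47 and Adar 4.62 ± 1.08. A second tier held Tlr3 at 2.19 ± 0.37 RPKM, Ifih1 at 1.78 ± 0.70, Cgas at 1.34 ± 0.39 and Dhx58 at 1.00 ± 0.68, and Zbp1 stood at 0.112 ± 0.140. The lowest control library of Adar lay above the highest of Tlr3, and this was the one place in the order where neighbours did not overlap. The Cd146+ and the Cd31+ preparations did not differ in these genes beyond the spread between libraries. Between Cd146+ and Cd31+ controls, 0 of 10 members passed an adjusted p of 0.05 (0% of 15676 genes tested did) and 0 an unadjusted p of 0.05 (17.5% of all genes), and the fitted log2 differences ran from -0.39 for Dhx58 (SE 0.46) to 0.38 for Sting1 (SE 0.20). Mavs varied least over the 24 libraries, between 9.71 and 14.8 RPKM. Dhx58 ranged from 0.187 to 21.3 RPKM and Zbp1 from 0 to 51.0 RPKM.

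**Figure D1:**
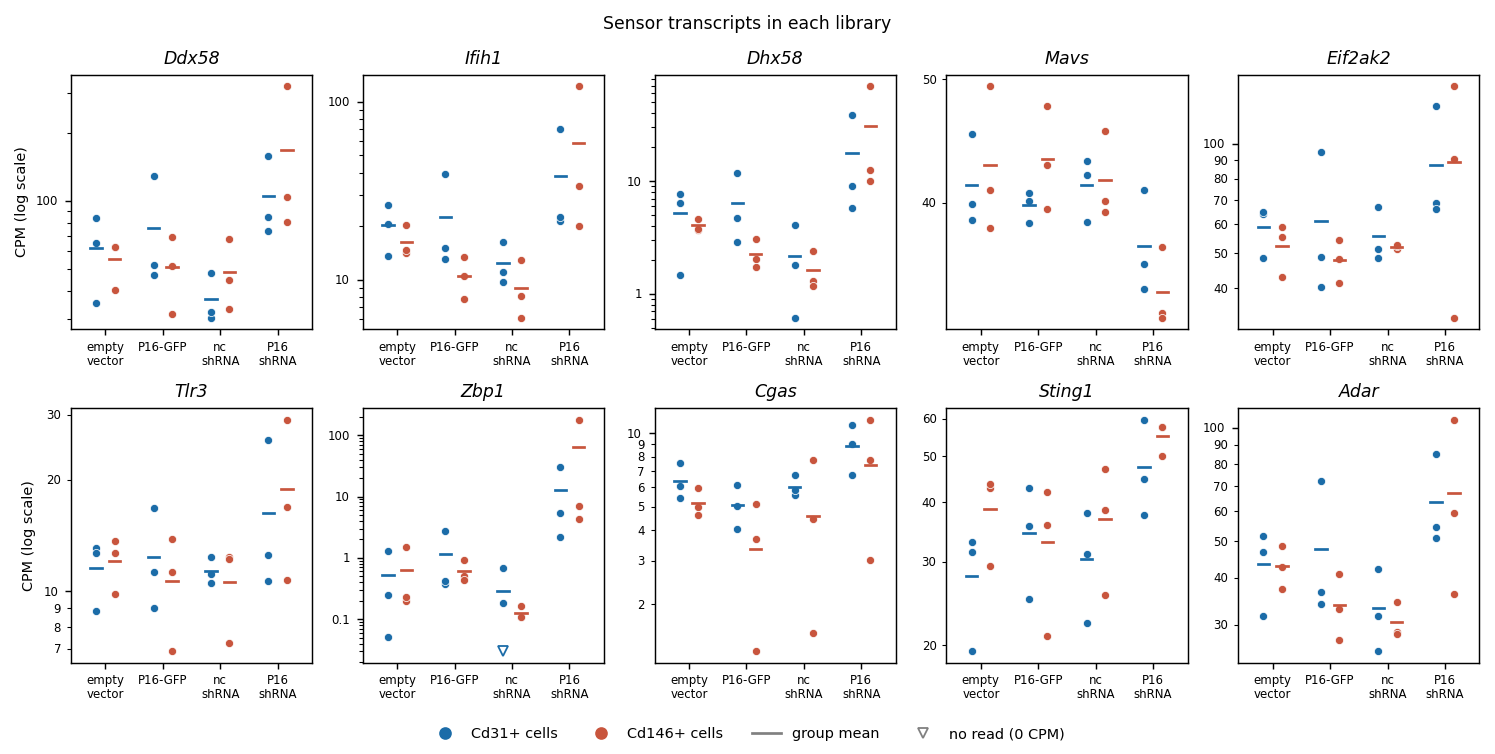
CPM of the 10 transcripts (y axis, log scale, a separate range for each gene) in every library of the 4 constructs (x axis), with Cd31+ libraries in blue, Cd146+ libraries in red, a bar at each group mean and an open triangle for no read. In Ddx58, Ifih1, Dhx58 and Zbp1, all 3 P16 shRNA libraries of a population lie above all 3 nc shRNA libraries, whereas Mavs stays between 32.5 and 49.4 CPM throughout.

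The windows around the transcription starts were searched for the core of the interferon-stimulated response element, GAAANNGAAA, and for the core of the gamma-activated sequence, TTCNNNGAA, on both strands. These are the letters bound by interferon-activated transcription factors, and the matches are shown because members that carry them can be set beside the changes given further on. RefSeq (GRCm38.p6) windows of 300 bases, 250 before and 50 after the start, were at hand for 7 of the 10 members. Dhx58, Zbp1 and Sting1 were not among them. The response element core was found in 3 of these 7 genes, against 3.99% of all 27025 genes with a window. Spacers of other lengths were not searched, so that other forms of the element could be missed. The matches lie in Ddx58 (chr4:40239804-40239833, minus strand), Ifih1 (chr2:62646206-62646233, minus strand) and Eif2ak2 (chr17:78882535-78882564, minus strand). The fragments are printed in the direction of the gene with up to 10 flanking bases on either side, the match in capitals, and the Ifih1 fragment stops where its window ends. In Ddx58 the match reads on the opposite strand.
Ddx58: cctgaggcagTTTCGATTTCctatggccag
Ifih1: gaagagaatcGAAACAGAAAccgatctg
Eif2ak2: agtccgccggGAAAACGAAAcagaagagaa
All 3 matches start within 32 bases downstream of the annotated start. The gamma-activated core was found in 2 of the 7 genes, against 9.55% of all genes. It lies in Eif2ak2 (chr17:78882732-78882760, minus strand), 178 bases before the start, and in the third of the 3 Adar windows (chr3:89730730-89730758, plus strand), 22 bases after that start.
Eif2ak2: ctgcagagctTTCCCAGAAtggaagccag
Adar: gggaagccttTTCAAGGAAacgaaagtga
Neither core was found in the windows of Mavs, Tlr3 and Cgas. No motif overlapped the other.

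With P16 shRNA, the 3 RIG-I-like receptors, Adar and Zbp1 had every library above every nc shRNA control in both populations, whereas Mavs did not. Zbp1 passed the low-count filter only through its P16 shRNA libraries and is left out of the counts that follow, which cover the other 9 members. In Cd31+ cells, 6 of these 9 were higher at an unadjusted p under 0.05, against 9.51% of 14358 genes tested, and 5 had all 3 P16 shRNA libraries above all 3 controls, against 13.8%. In Cd146+ cells, 4 of 9 were higher at an unadjusted p under 0.05, against 5.44% of 15124 genes, and 5 had groups that did not overlap in that direction, against 10.5%. No member passed an adjusted p of 0.05 in either population by edgeR's quasi-likelihood test on 3 against 3 libraries, where 1.30% and 0% of all genes did. With the replicate number as a term over the 12 libraries of a population, 5 of the 9 passed in Cd31+ cells (8.57% of all genes passed as higher) and 6 in Cd146+ cells (3.77%). The same term over only the 2 groups gave 6 in Cd31+ cells (8.92%) and 0 in Cd146+ cells (0%), where 2 of 3 numbers were shared. DESeq2's Wald test called 4 and 3, against 7.63% and 2.20% of all genes in either direction. The median log2 fold change of the 9 members was 0.66 in Cd31+ and 0.83 in Cd146+ cells, beside 0.0034 and 0.025 over all genes tested. The sources used here name no second hairpin against p16Ink4a, so that lower p16Ink4a and the sequence of this hairpin cannot be told apart. The 3 libraries of a group are not stated to be separate animals, and the p-values measure the spread between these samples.

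Among the 9 members, the RIG-I-like receptors had the largest fitted changes in both populations. Ddx58, the sensor of short and triphosphorylated RNA, was at 30.3, 32.3 and 48.0 CPM in the 3 nc shRNA libraries of Cd31+ cells and at 73.7, 84.3 and 158.0 CPM with P16 shRNA. In Cd146+ cells its nc shRNA libraries had 33.2, 67.5 and 44.7 CPM and its P16 shRNA libraries 321.6, 103.4 and 80.4 CPM. The groups did not overlap in either population. The log2 fold change was 1.52 (SE 0.34, adjusted p = 0.0916) in Cd31+ cells and 1.80 (SE 0.58, adjusted p = 0.398) in Cd146+ cells. With the replicate term over 12 libraries the adjusted p was 0.00315 and 0.0199, within ranges of 0.000138 to 0.211 and 0.0199 to 0.889 over all alternatives.

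Ifih1, the sensor of long double-stranded RNA, had 11.1, 9.76 and 16.3 CPM with nc shRNA and 21.3, 22.6 and 70.5 CPM with P16 shRNA in Cd31+ cells. In Cd146+ cells it had 6.11, 12.8 and 8.11 CPM against 122.7, 33.5 and 19.98 CPM. Again no P16 shRNA library fell within the range of the controls. The log2 fold change was 1.63 (SE 0.53, adjusted p = 0.175) and 2.70 (SE 0.73, adjusted p = 0.382). It passed with the replicate term over 12 libraries in both populations (adjusted p = 0.0250 and 0.0104, over all alternatives 0.00552 to 0.503 and 0.00318 to 0.889).

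Dhx58 encodes LGP2, a helicase of the family that lacks the signalling domain and modulates the other members. It had 0.612, 1.81 and 4.10 CPM with nc shRNA and 5.73, 9.002 and 38.4 CPM with P16 shRNA in Cd31+ cells. In Cd146+ cells it had 1.31, 2.38 and 1.17 CPM against 69.7, 12.5 and 10.1 CPM. Its change was the largest of the family in both populations, with log2 fold changes of 3.02 (SE 0.96, adjusted p = 0.171) and 4.23 (SE 0.89, adjusted p = 0.382), and with the replicate term it passed in both (adjusted p = 0.0188 and 0.00492, over all alternatives 0.000196 to 0.499 and 3.05e-06 to 0.889). An antisense transcript, Dhx58os, overlaps the gene, and it had at most 28 reads in a library with a median of 6.5. The protocol names both directional and non-directional libraries, so that reads of the 2 strands may not have been separated.

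The makeup of the family was compared per length. Dhx58 was 8.14 ± 4.66% of the summed RIG-I-like receptor RPKM with nc shRNA and 18.3 ± 8.11% with P16 shRNA in Cd31+ cells, with overlapping ranges (exact permutation test, two-sided, p = 0.2). The shares in Cd146+ cells were 5.87 ± 1.10% and 20.4 ± 4.90%, which did not overlap (p = 0.1 by the same exact test, below which 3 against 3 libraries cannot go). Ddx58 remained the most abundant of the 3 in every group, with a mean share of 62.6 to 81.1%. The summed level of the family ran from 5.84 to 10.1 RPKM in Cd31+ nc shRNA libraries and from 14.8 to 42.8 RPKM with P16 shRNA, and in Cd146+ cells from 5.86 to 11.9 and from 16.9 to 81.9 RPKM.

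**Figure D2:**
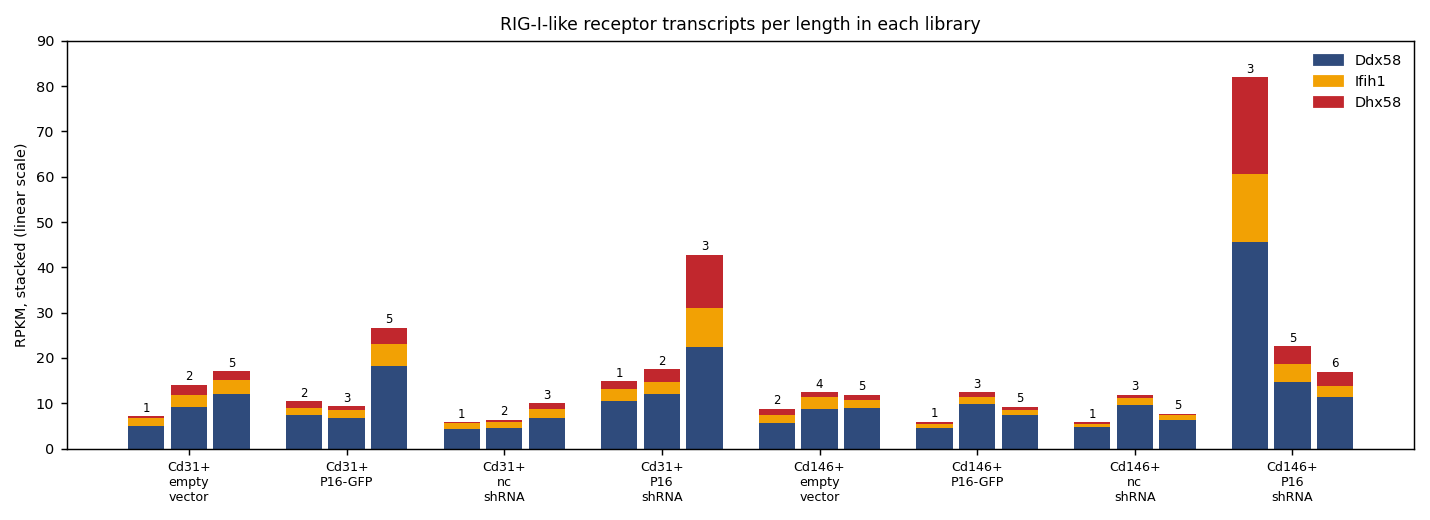
Stacked RPKM of Ddx58, Ifih1 and Dhx58 (y axis, linear scale) in each of the 24 libraries (x axis, by population and construct), with the replicate number above each bar. The P16 shRNA library numbered 3 is the tallest of its population in both, at 42.8 and 81.9 RPKM, and P16-GFP number 5 is the tallest of the vector libraries in Cd31+ cells at 26.7 RPKM.

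Mavs, the adaptor that both signalling helicases need, stood apart from its receptors. It had 43.1, 38.6 and 42.1 CPM with nc shRNA and 35.8, 40.9 and 34.2 CPM with P16 shRNA in Cd31+ cells (log2 fold change -0.15, SE 0.11, adjusted p = 0.479). In Cd146+ cells it had 45.5, 39.3 and 40.1 CPM against 32.7, 36.9 and 32.5 CPM, so that all P16 shRNA libraries lay below all controls, as in 10.1% of all genes (log2 fold change -0.29, SE 0.16, adjusted p = 0.486). Mavs was the one member whose fitted value was below 0, and it passed an adjusted p of 0.05 under none of the 13 alternatives in Cd31+ cells and none of the 14 in Cd146+ cells.

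Eif2ak2 encodes PKR, the kinase that stops translation when it binds double-stranded RNA. In Cd31+ cells it had 51.4, 48.5 and 67.0 CPM with nc shRNA and 68.6, 66.0 and 126.9 CPM with P16 shRNA (log2 fold change 0.66, SE 0.28, adjusted p = 0.267). For Cd146+ cells the controls lay within 51.4 to 52.7 CPM, whereas the P16 shRNA libraries had 144, 90.7 and 33.2 CPM (log2 fold change 0.78, SE 0.48, adjusted p = 0.527). The library numbered 6, which has no control of that number, was the lowest of all 24. With the replicate term over 12 libraries the Cd31+ value was 0.61 (adjusted p = 0.0849) and the Cd146+ value 1.15 (adjusted p = 0.0257). The term over the 2 groups gave 0.60 (adjusted p = 0.0102) and 1.12 (adjusted p = 0.162), so neither form passed in both populations. Over all alternatives the adjusted p ran from 0.000534 to 0.515 in Cd31+ and from 0.0257 to 0.890 in Cd146+ cells.

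Tlr3 detects double-stranded RNA in endosomes. Its 3 nc shRNA libraries of Cd31+ cells had 12.4, 10.5 and 11.1 CPM and its P16 shRNA libraries 10.7, 12.5 and 25.7 CPM. Cd146+ cells had 12.4, 7.26 and 12.2 CPM against 29.1, 16.9 and 10.7 CPM. The groups overlapped in both populations, and the log2 fold changes of 0.54 (SE 0.34) and 0.83 (SE 0.41) passed under no alternative (adjusted p 0.142 to 0.945 and 0.105 to 0.889). Without the P16 shRNA library numbered 3, the value in Cd31+ cells was 0.040.

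Zbp1, which binds left-handed double-stranded nucleic acid and can start necroptosis, went from near absence to clear detection. It had 0, 4 and 12 reads with nc shRNA and 99, 39 and 663 reads with P16 shRNA in Cd31+ cells. In Cd146+ cells it had 2, 4 and 2 reads against 4135, 199 and 88 reads. Every P16 shRNA library lay above every control. Summed over the 3 libraries and scaled to depth, P16 shRNA was 47.5 times nc shRNA in Cd31+ cells and 485.0 times in Cd146+ cells. The libraries numbered 3 held 663 of the 801 P16 shRNA reads in Cd31+ cells and 4135 of the 4422 in Cd146+ cells. The fitted log2 fold changes were 5.42 and 8.87. Ratios and fold changes are given without a test, since the gene entered this comparison only through libraries in which it was high. It was below the filter between P16-GFP and empty vector and between nc shRNA and empty vector.

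Of the DNA-sensing pair, Sting1 passed with the replicate term and Cgas under no alternative. Cgas had 6.73, 5.58 and 5.84 CPM with nc shRNA and 6.75, 9.06 and 10.8 CPM with P16 shRNA in Cd31+ cells, where the groups just failed to touch (log2 fold change 0.56, SE 0.22, unadjusted p = 0.0386, adjusted p = 0.225). In Cd146+ cells its values overlapped, with 1.53, 4.46 and 7.74 CPM against 11.4, 7.75 and 3.03 CPM (log2 fold change 0.69, SE 0.68, adjusted p = 0.691). Cgas passed an adjusted p of 0.05 under no alternative in either population. Sting1 had 31.1, 22.3 and 37.9 CPM against 44.9, 37.7 and 59.8 CPM in Cd31+ cells and 25.5, 38.5 and 46.9 CPM against 57.7, 57.8 and 50.1 CPM in Cd146+ cells. Its log2 fold changes were 0.65 (SE 0.24, adjusted p = 0.207) and 0.58 (SE 0.25, adjusted p = 0.428), and with the replicate term both passed (adjusted p = 0.00150 and 0.0473, over all alternatives 0.000950 to 0.462 and 0.0473 to 0.889).

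Adar encodes the enzyme that converts adenosine to inosine in double-stranded RNA and so keeps the cell's own RNA from being sensed. It had 25.6, 31.7 and 42.3 CPM with nc shRNA and 51.1, 54.6 and 85.1 CPM with P16 shRNA in Cd31+ cells (log2 fold change 0.95, SE 0.26, adjusted p = 0.126). The Cd146+ libraries had 28.7, 28.3 and 34.5 CPM against 105.1, 59.4 and 36.3 CPM (log2 fold change 1.13, SE 0.38, adjusted p = 0.402). The groups did not overlap in either population, and with the replicate term over 12 libraries Adar passed in both (adjusted p = 0.00668 and 0.0444, over all alternatives 4.74e-08 to 0.283 and 0.0444 to 0.889). Chrnb2, which overlaps Adar on the other strand, had at most 38 reads in a library.

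**Figure D3:**
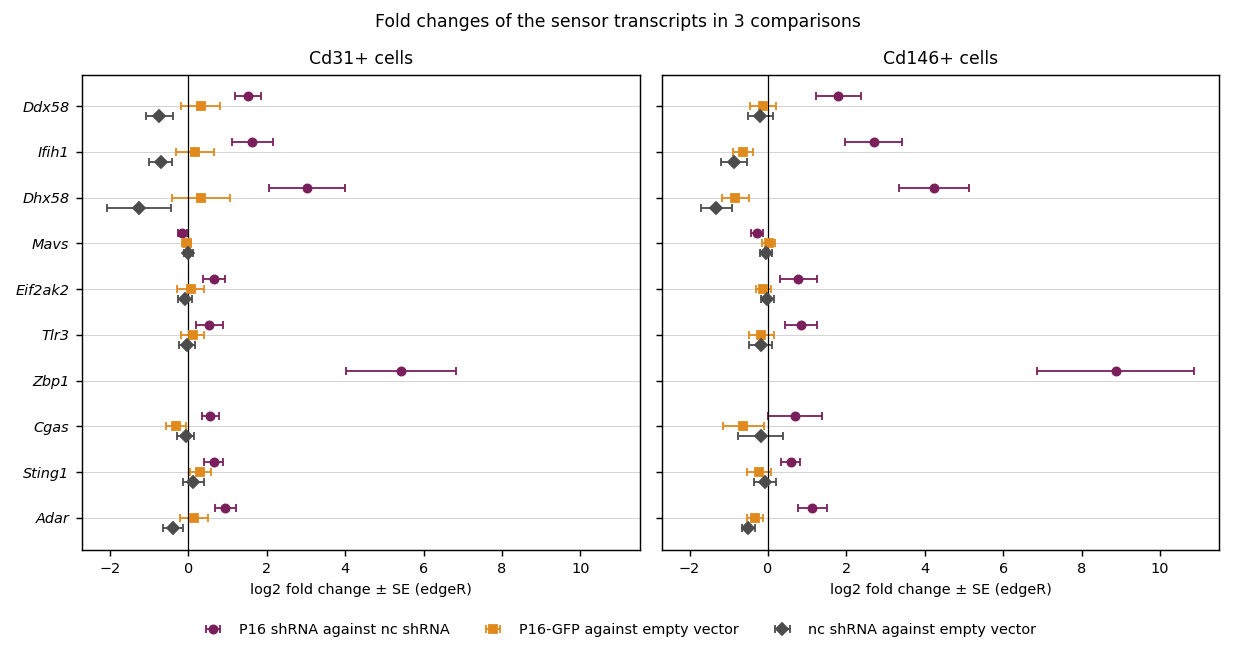
Log2 fold change with its standard error (x axis, edgeR) of each transcript (y axis) in Cd31+ cells (left) and Cd146+ cells (right), for P16 shRNA against nc shRNA (circles), P16-GFP against empty vector (squares) and nc shRNA against empty vector (diamonds). The circles reach 5.42 and 8.87 for Zbp1, which has no square or diamond because it was not tested there, and Mavs lies near 0 in all comparisons. Standard errors were derived from the F statistic of the quasi-likelihood test, and that of Zbp1 is not read as a test.

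Same-numbered libraries moved alike. There were 5 pairs of P16 shRNA and nc shRNA libraries with the same number. Ddx58, Ifih1, Dhx58, Eif2ak2, Sting1 and Adar were higher with P16 shRNA in all 5. So was Zbp1, which passed the low-count filter only through its P16 shRNA libraries. The share of all genes that were higher in all 5 pairs was not computed. The pair ratios of Ddx58, formed as log2 of CPM plus 0.5, were 1.27, 1.37 and 1.71 in Cd31+ cells and 2.24 and 1.20 in Cd146+ cells. Those of Dhx58 were 2.49, 2.04 and 3.08, and 4.61 and 2.96. Tlr3 was lower in 1 pair, at -0.21, and higher in the other 4. Cgas had ratios of 0.0048 and 0.0025 in 1 pair of each population and 0.65 to 1.26 in the other 3, and Mavs was below 0 in 4 of 5 pairs.

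**Figure D4:**
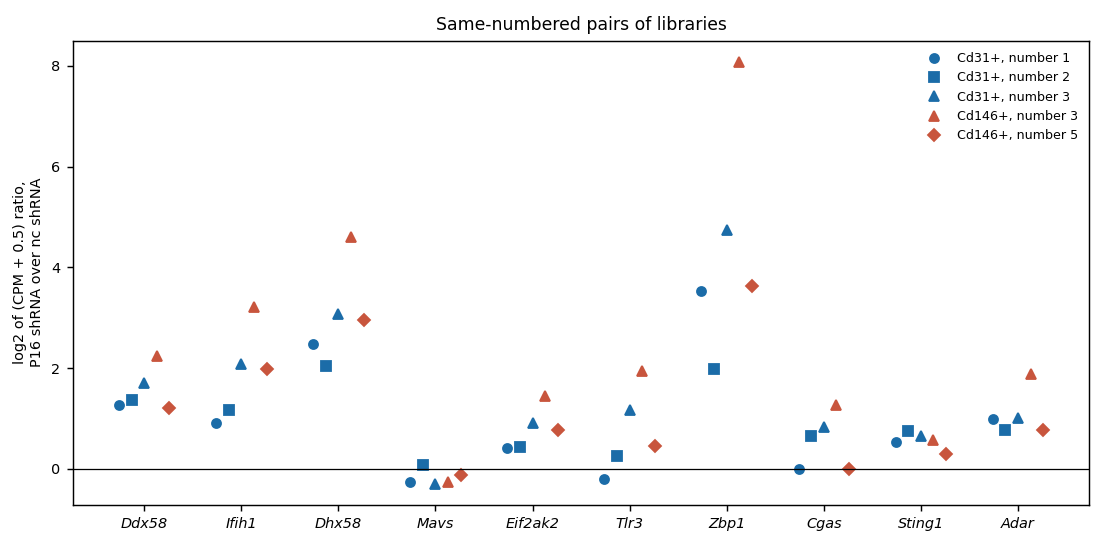
Log2 ratio of CPM plus 0.5 (y axis) for each transcript (x axis) in the 5 pairs of P16 shRNA and nc shRNA libraries that share a replicate number, blue for Cd31+ and red for Cd146+ cells, with a symbol for each number. The number 3 pairs (triangles) are the highest of their population for Zbp1, at 4.73 and 8.08, and all Mavs ratios lie between -0.30 and 0.081.

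The size of the change rested in part on the P16 shRNA libraries numbered 3. They had the highest level of every member except Mavs among the P16 shRNA libraries of Cd31+ cells, and of every member except Mavs and Sting1 in Cd146+ cells. Without them, the median log2 fold change of the 9 members other than Zbp1 was 0.45 in Cd31+ and 0.55 in Cd146+ cells, Dhx58 changed from 3.02 to 1.75 and from 4.23 to 2.80, Ifih1 from 1.63 to 0.83 and from 2.70 to 1.57, Ddx58 in Cd146+ cells from 1.80 to 0.93, and Zbp1 from 5.42 to 3.66 and from 8.87 to 5.40. Eif2ak2 went to 0.28 and 0.25, Adar in Cd146+ cells to 0.65, and Cgas in Cd146+ cells to 0.24. Then 4 of the 9 were higher at an unadjusted p under 0.05 in either population. Beside them, 2017 of 14644 genes in Cd31+ and 2149 of 15535 in Cd146+ cells were called in either direction. Without the nc shRNA library numbered 1 or 2 of Cd31+ cells the count of members was 3 or 2 (2893 of 14891 and 2562 of 14795 genes in either direction). Without nc shRNA number 1 of Cd146+ cells it was 2 (815 of 15921 genes). Among Cd146+ libraries, number 3 has the Y-linked pattern and the other P16 shRNA libraries the Xist pattern. With a term for this pattern, chosen after seeing the data, the Cd146+ log2 fold changes were 1.86 for Ddx58, 2.73 for Ifih1, 4.36 for Dhx58 and 9.57 for Zbp1. Of the 9 members other than Zbp1, 4 stayed at an unadjusted p under 0.05 (1769 of 15124 genes in either direction).

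The effects in the 2 populations were not shown to differ. The log2 fold change in Cd146+ cells minus that in Cd31+ cells, fitted over all 24 libraries, was 3.46 for Zbp1 (SE 2.28), 1.22 for Dhx58 (SE 1.18), 1.07 for Ifih1 (SE 0.83) and -0.13 for Mavs (SE 0.16). Of the 10 members, 0 passed an adjusted p of 0.05 (0% of 16524 genes) and 0 an unadjusted p of 0.05 (1.20%). These differences changed sign without the Cd146+ P16 shRNA library numbered 3, at -0.035, -0.22 and -0.061 for Zbp1, Dhx58 and Ifih1. Without P16 shRNA number 3 of Cd31+ cells, 3 of the 10 members reached an unadjusted p under 0.05 (210 of 16962 genes in either direction).

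Compared with the empty vector, cells with nc shRNA had lower or similar levels of the 9 members tested. The 2 constructs differ in backbone as well as in the hairpin, which cannot be told apart. This comparison shares its nc shRNA libraries with the silencing comparison and its empty-vector libraries with the P16-GFP comparison. In Cd31+ cells, 0 of 9 passed an adjusted p (0% of 14473 genes) and 0 an unadjusted p of 0.05 (3.16%), and the median was -0.087. In Cd146+ cells, 0 passed an adjusted p (0% of 14976 genes), 3 were lower at an unadjusted p under 0.05 (2.13% of all genes), all 9 fitted values were below 0, and the median was -0.19. Those 3 were Ifih1 (log2 fold change -0.87, SE 0.32), Dhx58 (-1.32, SE 0.39) and Adar (-0.50, SE 0.17), whose groups did not overlap (4.65% of all genes). Dhx58 had 4.66, 3.71 and 3.75 CPM with empty vector there, beside 1.31, 2.38 and 1.17 CPM with nc shRNA. In Cd31+ cells its empty-vector libraries had 1.47, 7.72 and 6.40 CPM, the lowest within the range of nc shRNA. With the replicate term over the 2 groups in Cd31+ cells, in which numbers 1 and 2 are shared, 3 members passed as lower, against 1.90% of all genes: Ddx58 at -0.61 (adjusted p = 0.00459), Ifih1 at -0.69 (adjusted p = 0.0117) and Dhx58 at -1.84 (adjusted p = 4.09e-05). Over all alternatives their adjusted p reached 1.00, and with the term over 12 libraries none of the 9 passed (0.180% of all genes). In Cd146+ cells only number 5 is shared, and 0 passed with that term (0% of all genes).

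With P16-GFP, the sensors overlapped their empty-vector controls in Cd31+ cells. There, 0 of 9 members passed an adjusted p (0% of 14565 genes) and 0 an unadjusted p of 0.05 (3.73%), no groups were separated (10.7% of all genes), and the median was 0.14. Ddx58 had 52.1, 46.9 and 128.7 CPM with P16-GFP and 35.3, 65.1 and 84.2 CPM with empty vector. The library numbered 5 was the highest in both groups. Dhx58 had 4.75, 2.87 and 11.7 CPM against 1.47, 7.72 and 6.40 CPM. With the replicate term the sign of 6 members turned over 12 libraries, Ddx58 to -0.013 and Dhx58 to -0.33, and the median was -0.11.

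In Cd146+ cells the members were mostly lower with P16-GFP than with empty vector, without passing the test. Of 9 tested, 0 passed an adjusted p (0% of 14860 genes), 1 was lower at an unadjusted p under 0.05 (1.99% of all genes) and 2 had separated groups in that direction (4.89%). Ifih1 had 7.80, 13.4 and 10.4 CPM against 14.1, 20.4 and 14.7 CPM (log2 fold change -0.64, SE 0.26, unadjusted p = 0.0493). Dhx58 had 1.73, 3.07 and 2.02 CPM against 4.66, 3.71 and 3.75 CPM (log2 fold change -0.83, SE 0.35, unadjusted p = 0.0515). With a term for the Xist pattern no member was below an unadjusted p of 0.05. Cgas ranged from 1.28 to 5.12 CPM with P16-GFP and from 4.63 to 5.98 CPM with empty vector (log2 fold change -0.63, SE 0.52). Mavs had 0.018 (SE 0.16) and Eif2ak2 -0.12 (SE 0.19) on the log2 scale. Zbp1 was at 2.69 CPM or less in all 12 vector libraries of both populations.

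Downstream of the RNA helicases, most signalling genes did not follow their receptors. Of 24 genes of the Mavs pathway tested, 4 were higher and 3 lower with P16 shRNA in Cd31+ cells at an unadjusted p under 0.05 (median log2 fold change 0.11), and 2 higher and 3 lower in Cd146+ cells (median 0.076). Over all genes, 9.51% were higher and 10.3% lower in Cd31+ cells and 5.44% and 6.18% in Cd146+ cells, and the counts of this list are not far from those shares. Irf7, the transcription factor that amplifies interferon production and is itself induced by interferon, had the largest change, at 3.43 (SE 0.83, adjusted p = 0.109) and 4.97 (SE 0.83, adjusted p = 0.361). The adaptors of the Mavs complex went both ways. Traf2 had 0.56 (SE 0.11, adjusted p = 0.0624) in Cd31+ cells, with separated groups, and 0.37 (SE 0.24, adjusted p = 0.539) in Cd146+ cells. Traf6, a ubiquitin ligase, fell by 0.79 on the log2 scale in Cd31+ cells (19.3 against 33.6 CPM, adjusted p = 0.0303), the one gene of these lists to pass, and had -1.02 (SE 0.26, adjusted p = 0.382) in Cd146+ cells. Its nc shRNA libraries also lay above the empty-vector libraries in both populations, at 33.6 against 24.7 CPM and 33.0 against 21.5 CPM (log2 fold change 0.45 and 0.60, adjusted p = 0.992 and 0.907). Tradd had -0.94 (SE 0.17, adjusted p = 0.0551) and -1.06 (SE 0.19, adjusted p = 0.382). For Traf6 and Tradd all P16 shRNA libraries lay below all controls in both populations.

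Around cGAS and Sting1, 5 of the 15 genes that entered the Cd31+ test were higher and 0 lower at an unadjusted p under 0.05 (median 0.20), and 2 higher and 0 lower in Cd146+ cells (median 0.29), beside the 9.51% and 5.44% of all genes that were higher. Ifi35 and Ifi204, both known as interferon-induced, were among them in both populations, Ifi35 at 1.56 (SE 0.40) and 1.78 (SE 0.37) and Ifi204 at 1.13 (SE 0.38) and 1.89 (SE 0.72). Enpp1, which degrades the product of cGAS, had 1.83 (SE 0.46) and 1.10 (SE 0.63), with separated groups in Cd31+ cells alone. Of the Toll-like receptors and their adaptors, 10 were tested in Cd31+ cells, with 2 higher and 1 lower, and 12 in Cd146+ cells, with 0 higher and 1 lower, where 10.3% and 6.18% of all genes were lower. The lower one was Tlr4, the receptor of bacterial lipopolysaccharide, in both populations (-0.73, SE 0.16, and -0.68, SE 0.24). Kinases and targets of the stress response that PKR shares with other kinases had medians of 0.00065 and 0.13 over 16 genes, with 3 higher and 1 lower in Cd31+ cells and 1 higher in Cd146+ cells, beside the same shares over all genes. Of the partners through which Zbp1 starts necroptosis, Mlkl had 0.80 (SE 0.28, adjusted p = 0.185) and 0.91 (SE 0.60, adjusted p = 0.550) and Ripk3 0.53 (SE 0.32) and 0.57 (SE 0.93).

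Interferon-induced genes were higher with P16 shRNA, while interferon transcripts were at the limit of detection. Of 20 interferon-induced genes outside the sensor set, 17 were tested in Cd31+ and 19 in Cd146+ cells, 11 of them in either population admitted by the low-count filter only through their P16 shRNA libraries. Of the 6 and 8 that their nc shRNA libraries alone would have admitted, 5 and 7 were higher at an unadjusted p under 0.05 (9.51% and 5.44% of all genes), with median log2 fold changes of 1.82 and 3.38. None of the list passed an adjusted p of 0.05, and 4 of those 6 and 6 of those 8 passed with the replicate term over 12 libraries (8.57% and 3.77% of all genes). All 21 type I, II and III interferon genes in the table were below the low-count filter. For 7 of them no read was counted in any of the 24 libraries, the highest count was 8, and a library held 0 to 17 interferon reads in all. Ifnb1 had 14 reads in 5 libraries. The Cd146+ P16 shRNA libraries numbered 3 and 6 had 8 and 1, and the Cd31+ P16 shRNA library numbered 3 had 2. A Cd31+ P16-GFP library had 2 and a Cd31+ empty-vector library 1. All 6 nc shRNA libraries had 0 reads, as did the other P16 shRNA libraries. At 0 reads the floor of 3 reads allows up to 0.195 CPM. Markers of plasmacytoid dendritic cells, which make large amounts of interferon, were near 0 for Siglech (at most 3 reads) and Ccr9 (at most 8 reads), and the 4 markers of that list summed to between 12.5 and 553.6 CPM, mostly from Bst2, which interferon also induces.

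The genes whose pattern over the 24 libraries was closest to each sensor differed between the sensors. Likeness was measured as the root-mean-square difference of standardised log2 CPM, in SD. Interferon-induced genes were nearest to 7 of the members: Xaf1 to Ddx58 (0.299), Phf11d to Ifih1 (0.241), Irf7 to Dhx58 (0.221), Oas1g to Zbp1 (0.207), Stat2 to Adar (0.265), Helz2 to Eif2ak2 (0.398) and Gbp7 to Tlr3 (0.484). Cgas was nearest to Knl1 (0.378) and Ttk (0.381), genes of the mitotic kinetochore and spindle checkpoint. Sting1 was nearest to Cd1d1 (0.407) and Mavs to Dennd5a (0.489). These are descriptions of 24 libraries that share constructs and replicate numbers, and no test was made of them.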

How the data were processed

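RNA was sequenced by the authors from 24 libraries. The deposited values are raw counts of reads per gene, whole numbers without normalization, and gene lengths in bases stand beside them. The authors' FPKM columns and their comparison columns (log2 fold changes and p-values) were not used. The submitters' processing notes name mm9 and fastp. The aligner is not given in the sources used here, and 0 of 10 members had the start and end of GRCm38.p6, so gene coordinates from the table are not printed and sequences come from RefSeq. Groups and replicate numbers were taken from the labels.

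Groups were compared with edgeR 4.0.16 (filterByExpr, TMM, robust quasi-likelihood fit, two-sided) on the 6 libraries of the 2 groups, p-values being adjusted over every gene tested (Benjamini-Hochberg). The standard errors printed with edgeR fold changes are the absolute log2 fold change divided by the square root of that test's F statistic. CPM and RPKM were computed from the counts, with TMM library sizes. The populations were compared over the 12 control libraries with the construct as a term, and the difference between the silencing effects over 24 libraries. Within each population, after group means were removed, the median correlation of same-numbered libraries was 0.588 (Cd31+, 13 pairs, lowest 0.358) and 0.695 (Cd146+, 10 pairs, lowest 0.333), that of differently numbered ones -0.182 and -0.077, so the labelled numbers were taken to pair the samples. Alternatives were 2 low-count filters, DESeq2 1.42.0 size factors and Wald test, a fit over 12 libraries, the replicate block and each library left out. The main tests and the fits with a library left out had no replicate block and so did not use this pairing. A term for Xist against Ddx3y was added after seeing the data. The code was tested on simulated data. The members, gene lists and markers were chosen with earlier results of these data known. Named genes were the members, Cdkn2a, and of each list those with the highest level, an adjusted p under 0.05 or the smallest p, as well as the nearest genes by pattern. Of these, the genes printed were narrowed after the fits.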

Additional observations from a re-analysis of the deposited data

How the results depend on the processing

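No member changed direction between P16 shRNA and nc shRNA in either population under any alternative run. The counts here for the P16 shRNA comparisons cover the 9 members other than Zbp1. All genes called in either direction stand in brackets, also for the other comparisons. The number passing an adjusted p of 0.05 moved from 0 to 4 in Cd31+ cells with all genes of at least 1 count (1294 of 34699). DESeq2's Wald test gave 4 in Cd31+ cells (7.63%) and 3 in Cd146+ cells (2.20%). The replicate block over the 2 groups gave 6 in Cd31+ cells (18.8%). The block over 12 libraries gave 5 in Cd31+ cells (17.8%) and 6 in Cd146+ cells (8.83%). The number at an unadjusted p under 0.05 in Cd146+ cells moved from 4 to 7 and 8 with the block over 2 groups and over 12 libraries (2499 and 4290 of 15124). With a library left out it was 2 to 7 in Cd31+ cells (1990 to 2893 of 14644 to 14940) and 2 to 6 in Cd146+ cells (815 to 2350 of 15332 to 15921). For P16-GFP in Cd146+ cells, the 1 member at an unadjusted p became 0 with DESeq2's size factors (528 of 14860). The count was also 0 in the fit over 12 libraries (702) and with the Xist term (244), and 2 with the Wald test (792). Leaving out a library gave 0 to 2 (221 to 1292 of 15137 to 15572). For nc shRNA against empty vector in Cd31+ cells, the 0 at an unadjusted p became 2 with all genes (977 of 31930). It became 1 with DESeq2's size factors (459 of 14473) and 2 with the Wald test (469). The block over the 2 groups gave 4 (1900), and 3 at an adjusted p (444). Leaving out a library gave 0 to 3 (353 to 634 of 14822 to 14992). In Cd146+ cells the 3 became 0 in the fit over 12 libraries (646 of 14976). With a library left out they became 1 to 3 (184 to 1510 of 15311 to 15698), 1 being reached without nc shRNA number 1 or empty vector number 5. Between populations the count at an unadjusted p was 0 to 1 with a library left out (1955 to 3195 of 16078 to 16276). For the difference between the silencing effects it was 1 with the block over 24 libraries (752 of 16524). With a library left out it was 0 to 3 there (139 to 699 of 16954 to 17021). The block changed no other count of calls by over 1.5 times. It could not be fitted over the 2 groups of the vector and control comparisons of Cd146+ cells, which share 1 number. Over all members, the sign turned in 23 of 126 refits for P16-GFP in Cd31+ cells, 8 of 117 in Cd146+ cells, 22 of 126 and 17 of 117 for nc shRNA against empty vector, 11 of 169 between populations and 18 of 180 for the difference between the silencing effects, the last on values up to 0.59. Among the members described for P16-GFP in Cd31+ cells, the replicate block over 12 libraries turned Ddx58 to -0.013 and Dhx58 to -0.33, the block over the 2 groups turned Mavs to 0.0028, and leaving out a library gave -0.33 to 0.62 (Ddx58), -0.46 to 0.71 (Dhx58) and -0.082 to 0.016 (Mavs). In Cd146+ cells, Mavs ran from -0.066 to 0.13 with a library left out, and Eif2ak2 became 0.0041 with the Xist term. For nc shRNA against empty vector, Mavs in Cd31+ cells was -0.036 with all genes, -0.0010 with the mean filter at 10 counts, -0.0015 with size factors, -0.0019 with the Wald test, -0.0065 in the fit over 12 libraries, -0.044 and -0.0051 with the block over 2 groups and 12 libraries, -0.031 with the Xist term and -0.041 to 0.054 with a library left out. In Cd146+ cells it was 0.012 with the block over 12 libraries and -0.13 to 0.072 with a library left out. The difference between the silencing effects ran from -0.061 to 1.86 (Ifih1), -0.22 to 2.47 (Dhx58) and -0.035 to 5.20 (Zbp1) with a library left out, the lowest without the Cd146+ P16 shRNA library numbered 3. The causes were not tested. Interferon genes had at most 8 reads in a library and Zbp1 at most 12 in the nc shRNA libraries, beside a floor of 3 reads, so that small differences among them were not detectable at this depth.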
